A study of Mus musculus with 59 samples.

Results

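Mouse embryonic stem cells (ESCs) were treated with actinomycin D. By 4 h, 190 genes outside families left out by name had lost more than 80% of their control signal. These members were chosen by their control values: a mean of at least 50 over the 2 control libraries at 0 h, and a 4 h mean under 0.2 of the 0 h mean. Of 23974 genes in the table, 3254 reached the level of 50 outside the excluded families, and the 190 members were 5.84% of those. Before the name filter 261 genes met both limits, and 47 of the 71 genes left out by name were histone genes. The filter removed symbols starting with Hist, Zfp, Klf, Fos, Jun, Egr1, Ier, Rn45s, Snhg, Spry, Dusp or Etv. It also removed the Id genes and non-coding Rik genes, so absence of such genes from the group says nothing about their loss. The control values at 0 h and 4 h therefore define the group, and everything said of them is a description with no test.

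The cells were ESCs of the BDF1 strain, derived from blastocysts and grown in serum with LIF and the inhibitors CHIR99021 and PD0325901. Control cells were wild type and KO cells lacked Zcchc8 per the labels, which do not say how many clones were used. Actinomycin D was added at 5 µg/ml and cells were harvested at 0, 4 or 8 h, giving 6 groups of 2 libraries, all of total RNA depleted of ribosomal RNA and carrying ERCC spike-in. Every group, the 0 h groups included, shares that strain and medium. In bulk RNA, fewer cells of a type and less RNA per cell cannot be told apart.

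Actinomycin D binds DNA and blocks RNA polymerases, so after its addition a transcript's level falls at the rate at which the RNA decays. Short-lived mRNAs often encode proteins whose amount must change quickly, such as transcription factors, feedback inhibitors of signalling and secreted ligands. Many of them carry AU-rich elements in the 3′ UTR, which recruit the deadenylation machinery. Zcchc8 is the scaffold of the nuclear exosome targeting (NEXT) complex, which passes unstable nuclear RNA to the exosome, while most mRNA decay takes place in the cytoplasm.

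The AU-rich motif searched for here was TATTTAT, which contains the shorter pentamer ATTTA, on the transcript's own strand. One 25-base window is shown for each of 6 members described below, with the motif in capitals. These 6 were picked among named members in which the motif was found. It was absent from the 3′ UTRs of Arid5b, Gli2, Cited2, Rhob, Bbc3, Cdt1, Kif20b, Fzd10 and Fam69b, also described below. The members as a whole did not carry the motif much more often than other genes. The sequences are from GENCODE transcripts on GRCm38 and each window lies in the 3′ UTR.
Sox2: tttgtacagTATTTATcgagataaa
Fgf4: acgcccaatTATTTATaattttatg
Epha2: ctggaacttTATTTATttctgtttc
Cyr61: atgttttttTATTTATcaaagtgta
Socs3: ttgcacataTATTTATatttatact
Plk2: taaacttttTATTTATtacagcccc
TATTTAT was found in 53 of the 166 members whose annotated 3′ UTR had at least 100 bases (31.9%) and in 826 of 2963 eligible genes (27.9%). The median density of ATTTA was 1.24 per kb in members and 1.32 per kb in eligible genes. A match is a description of the letters, not a functional site.

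Which strand a value stands for bears on many members. Of the 188 members matched to the annotation, 76 (40.4%) overlap an exon annotated on the other strand, as do 41.8% of eligible genes. In several pairs of facing entries most of the signal was listed under the gene not known to be abundant. At control 0 h Snx22 averaged 5152 while Ppib, an abundant housekeeping gene facing it, stood at 128 and 197. Acat3 stood at 3145 and 6735 while Tcp1, a chaperonin subunit gene on the other strand with 2 transcripts, was listed at 0. These pairs were chosen after their values were seen. Whether reads were counted by strand, and with which setting, is not stated by the labels, so for a member with a facing gene the reads of the 2 genes cannot be told apart. The 112 members with no facing exon are therefore counted separately in the tests below. That count does not settle which strand was counted, a question that the values of these 112 share. Some of them still have a gene close by on the other strand, such as Hsp90ab1 near Slc35b2 and Zfp57 near Mog.

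All 4 microRNA entries among the members face another gene. Mir290b and Mir292b lie on the minus strand of chromosome 7, opposite the miR-290 to miR-295 cluster that is characteristic of ESCs. Mir142b lies opposite Mir142 on chromosome 11, and Mir1896 faces the coding gene Zscan26 on chromosome 13. The values count total RNA reads over the precursor interval, not mature microRNA. The mature sequences are given below with the seed, bases 2 to 8, in capitals, to show how closely facing entries mirror each other. They are RefSeq sequences on GRCm38.p6, and all 4 entries were matched by name.
mmu-miR-290b-3p: aAGUGCCCccauaguuugagua
mmu-miR-290a-5p: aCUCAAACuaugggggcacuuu
mmu-miR-292b-3p: aAGAGCCCccaguuugaguau
mmu-miR-292a-5p: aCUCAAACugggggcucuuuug
mmu-miR-142b: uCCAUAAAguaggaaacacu
mmu-miR-142a-3p: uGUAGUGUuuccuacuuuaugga
mmu-miR-1896: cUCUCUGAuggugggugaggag
The 4 sequences from member entries have 4 different seeds, whereas miR-290a-5p and miR-292a-5p share the seed CUCAAAC. miR-290b-3p and miR-290a-5p overlap by 21 bases, all 21 complementary, and miR-292b-3p and miR-292a-5p by 19 of 19. Mir292b held 141 and 262 at control 0 h, 1.46 and 0 at 4 h, and 1.08 and 5.87 at 8 h. In KO it held 135 and 97.0 at 0 h and 1.12 and 0.969 at 4 h. Mir290b held 107 and 233 at control 0 h against 3.64 and 9.27 at 4 h, and 69.1 and 145 at KO 0 h against 8.41 and 7.75 at 4 h. Mir290a and Mir292, the entries on the strand of the known cluster, were at 0 in all 4 libraries at 0 h. Nlrp12, which spans the rest of the cluster on the other strand and encodes an innate immune sensor, is described with the members that KO kept least.

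**Figure D1:**
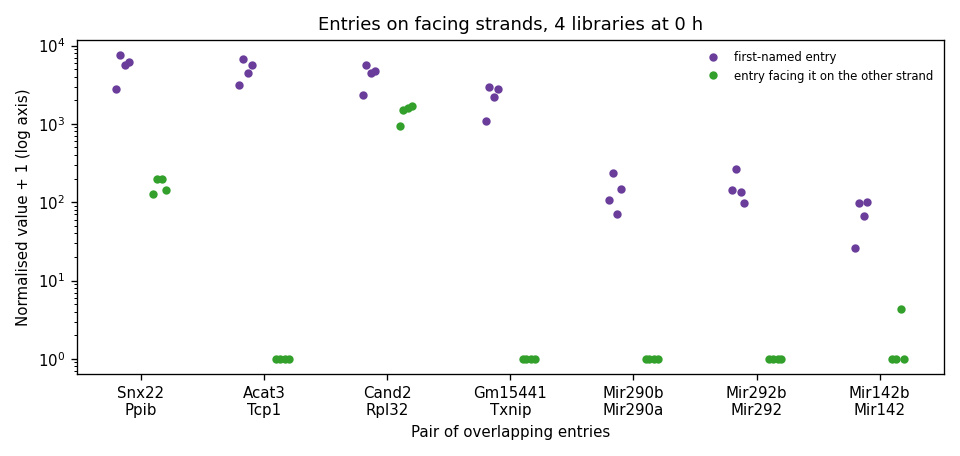
Normalised value + 1 (log axis) of 7 pairs of overlapping entries in the 4 libraries at 0 h; each point is a library, purple the first-named entry and green the entry facing it on the other strand. In every pair shown the purple points lie above the green ones, and Tcp1, Txnip, Mir290a and Mir292 are at 0.

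Depth was low. The libraries held 465324 to 1364523 counted reads, and the median member rested on 36.5 to 55.5 reads at 0 h and on 10 to 27.5 reads at 4 and 8 h. Zcchc8 itself was at 59.3 and 77.5 in control 0 h and at 25.3 and 5.29 in KO 0 h, so reads remained in the libraries labelled KO. At 8 h it did not separate the genotypes, with 7.57 and 11.3 in control and 9.56 and 3.78 in KO (log2 difference -0.53, adjusted p = 0.638 by limma). Control 0 h replicate 2 was above replicate 1 for 183 of 190 members. That gap was not particular to members, since the sum over all genes was 1503070 in replicate 2 and 822410 in replicate 1. Of the 21 ESC markers 17 averaged at least 10 at 0 h, with sums of 3192 to 5113 in control and 4329 to 4753 in KO, and Esrrb was listed at 0. Fibroblast markers summed to 6973 to 11793 in control 0 h and 16384 to 21474 in KO 0 h, with 16 of 23 markers at a mean of at least 10 and Postn, Pdgfrb and Sparc at 0. At 0 h the primitive endoderm list summed to 124 to 165 in control and 326 to 483 in KO, with 2 of 10 markers at a mean of at least 10 and Gata4, Sox17, Foxa2 and Dab2 at 0. The neuroectoderm list summed to 115 to 249 in control and 319 to 409 in KO, with 4 of 9 markers at that level and Pax6 and Map2 at 0. The part of these lists in any difference between genotypes was not tested. Genes with several transcripts seldom carry signal in this table: 2.95% of them reached 50 at control 0 h, against 17.4% of genes with 1 transcript, and 180 of the 190 members have 1 transcript. Absence from the group is therefore no sign that a gene's mRNA is stable.

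The median member went from 61.9 and 118 in the control 0 h libraries to 10.2 and 13.1 at 4 h and to 5.40 and 7.68 at 8 h. In KO it went from 93.5 and 97.9 to 15.4 and 21.3 and then to 12.1 and 18.9. The median eligible gene stood at 81.0 and 142 in control 0 h, at 61.8 and 82.6 at 4 h, and at 34.6 and 43.4 at 8 h. Ribosomal protein genes, whose mRNAs are known to be long-lived, had medians of 690.1 and 1189 at control 0 h and of 872 and 1183 at 4 h. At 8 h their medians were lower in control, at 505 and 587, than in KO, at 813 and 678. The share left at 4 h, the 4 h mean as a percentage of the 0 h mean, had a median of 12.6% over members in control, by construction under 20%, against 67.7% over eligible genes. At 8 h the corresponding medians in control were 6.86% and 35.1%.

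**Figure D2:**
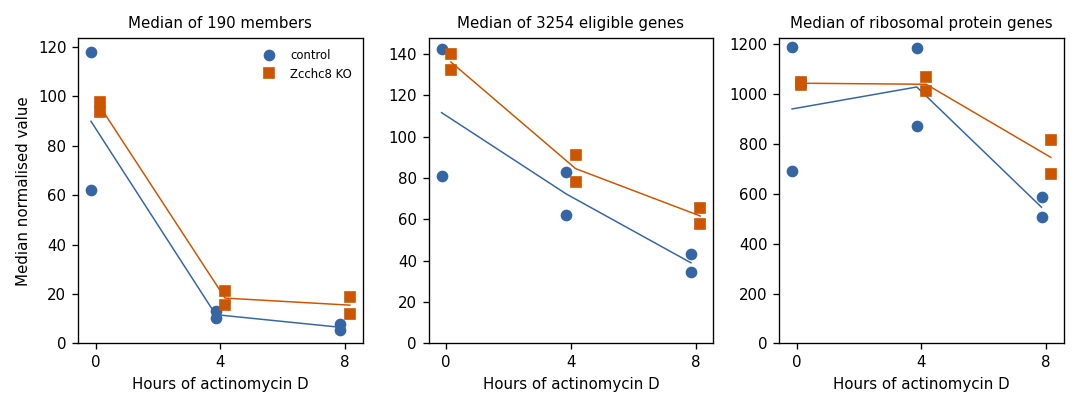
Median normalised value of the 190 members, the 3254 eligible genes and the ribosomal protein genes against hours of actinomycin D; circles are control and squares Zcchc8 KO libraries, and lines join the means of 2 libraries. The members' medians lie between 61.9 and 118 at 0 h and between 10.2 and 21.3 at 4 h, while the ribosomal protein medians lie between 690.1 and 1189 at 0 h and between 872 and 1183 at 4 h.

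Zcchc8 KO cells showed the loss for most members. In KO, 145 of 190 members were lower at 4 h than at 0 h and none was higher, by limma on log2(value + 1), with p adjusted by Benjamini and Hochberg's method across 6952 genes and a limit of 0.05. Of all genes tested 14.4% were called lower and 0.0288% higher, with 20.4% lower among those with a control 0 h mean of at least 50, against 76.3% of the members. No member was higher at an unadjusted p under 0.05, nor by edgeR or DESeq2. The median log2 change over members was -2.46, against -0.68 over all genes tested. Both KO 4 h libraries lay below both KO 0 h libraries for 185 members, as they did for 62.8% of all genes tested. Among the 112 members with no facing exon, 85 were called lower, with a median log2 change of -2.47. Of the 69 members under 0.2 in each of the 4 pairings of control libraries, 62 were called lower.

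The count depends on how the libraries are scaled and on single libraries. On the deposited scale most genes decline, and after TMM scaling, which sets the typical gene to no change, 85 members were called lower against 4.49% of all genes, with a median log2 change of -1.76 over members and 0.02 over all genes. Leaving out KO 0 h replicate 1, KO 0 h replicate 2 or KO 4 h replicate 1 left 88, 78 or 81 calls.

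**Figure D3:**
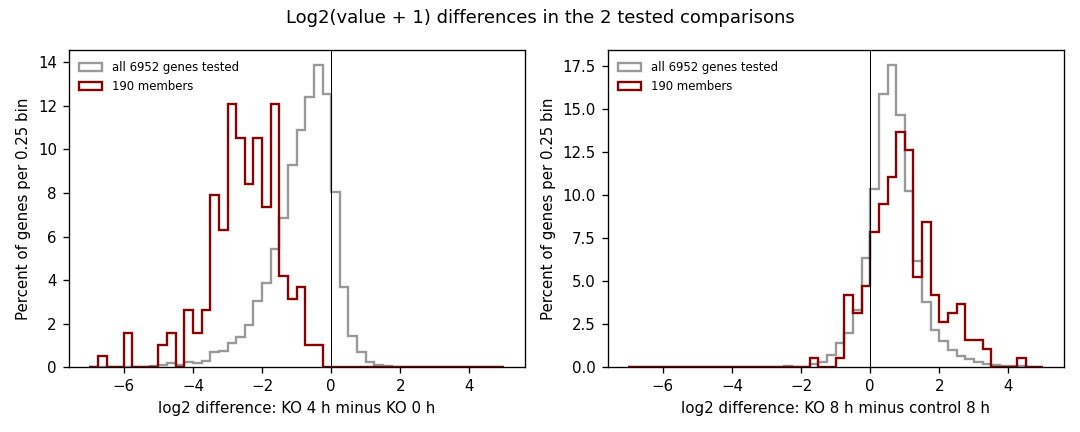
Distribution of log2(value + 1) differences for KO 4 h minus KO 0 h (left) and KO 8 h minus control 8 h (right), as percent of genes in bins of 0.25, for all 6952 genes tested (grey) and the 190 members (red). On the left the members centre on -2.46 and all genes on -0.68; on the right the members centre on 0.90 and all genes on 0.63.

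The choice of members held the control share at 4 h under 20% but set no limit on the KO share. A wider spread in KO over members therefore follows from that choice. Over eligible genes the quartiles were 44.5% and 88.5% in control and 45.6% and 86.2% in KO. The KO share had a median of 18.0% over members and 66.5% over eligible genes. Of the members, 105 were under 20% in KO, 147 under 30%, 170 under 40%, and 9 kept 50% or more. The KO share was above the control share for 150 of 190 members. The members were chosen for low control shares, so that count is not a test of slower loss in KO. The 236 genes that met the same 2 limits in KO showed the mirror image, with a median share of 13.9% in KO and 17.3% in control, and 154 of them had the higher share in control. Both lists held 98 genes, 51.6% of the control-chosen members and 41.5% of the KO-chosen genes. Of the 138 genes on the KO list alone, 89 were under the level of 50 in control, and 14 kept at least 50% in control. Conversely, 27 members had a KO 0 h mean under 50 and could not enter the KO list. They include the 3 members Erbb2, Mms22l and Mina, chosen after their values were seen, that kept 76.6%, 61.6% and 61.2% in KO. Erbb2, a receptor kinase, rests on 40.4 and 17.6 at KO 0 h and 13.5 and 31.0 at 4 h, which overlap.

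**Figure D4:**
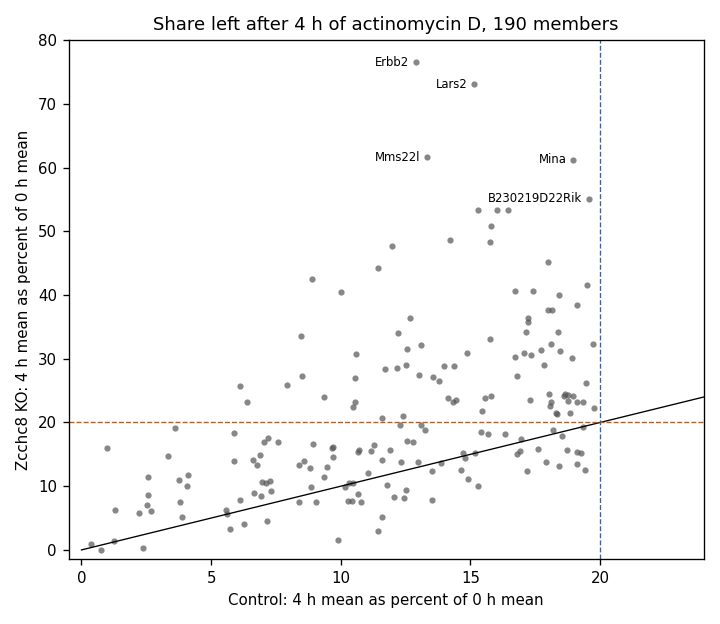
Share left at 4 h in KO against the share left in control, in percent, for the 190 members; each point is a gene, the solid line marks equal shares and the dashed lines 20%. All points lie left of 20% in control because that limit chose them; in KO 105 lie under 20% and 9 at or above 50%.

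The list of transcription factors, which does not hold every such gene, gave 12 members among its 35 eligible genes. They include Sox2, Arid5b, Gli2, Zic5, Gbx2, Mycn, Hes1 and Foxo1, and 9 of the 12 have no facing exon. In KO 10 of the 12 were called lower at 4 h, 6 after TMM scaling, and Zic5 and Foxo1 were not called. Sox2, a core pluripotency factor, was at 611 and 1134 in control 0 h and at 65.5 and 58.7 at 4 h. In KO it was at 852 and 867 at 0 h, 74.0 and 107 at 4 h, and 54.2 and 76.8 at 8 h. Every Sox2 library at 4 or 8 h lay well under every library at 0 h, and the KO log2 change to 4 h was -3.26 (SE 0.42, adjusted p = 1.87e-07 by limma). Arid5b, a DNA-binding chromatin regulator, fell in KO from 214 and 171 to 28.0 and 31.0 by a log2 change of -2.66 (SE 0.49, adjusted p = 1.45e-04), after 149 and 184 against 13.1 and 22.4 in control. Gli2, the effector of Hedgehog signalling, fell in KO from 135 and 109 to 16.8 and 20.3 (log2 change -2.65, SE 0.55, adjusted p = 6.90e-04). Zic5, a zinc finger factor, was at 108 and 130.5 in KO 0 h and at 34.8 and 62.0 at 4 h, where the libraries do not overlap but the test did not pass (log2 change -1.33, SE 0.57, adjusted p = 0.109). Foxo1, a factor inhibited by insulin signalling and faced by Gm20402, was at 37.1 and 38.8 in KO 0 h and at 8.41 and 14.5 at 4 h (log2 change -1.69, SE 0.71, adjusted p = 0.103).

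Feedback regulators and kinases of signalling pathways gave 9 members of 17 eligible listed genes: Smad7, Cited2, Socs3, Axin2, Sik1, Pim3, Tob2, Tob1 and Nfkbia. All 9 were called lower in KO at 4 h, 4 of them after TMM scaling. Smad7, an inhibitor of TGF-beta receptors, held 299 and 562 in control 0 h and 70.6 and 88.8 at 4 h, close to the limit that defined the members. In KO it fell from 403 and 347 to 76.8 and 57.2 (log2 change -2.48, SE 0.44, adjusted p = 7.78e-05), and it stood at 46.5 and 93.2 at 8 h. Cited2, a CBP/p300-binding modulator of transcription, was at 251 and 222 in KO 0 h and at 9.53 and 5.81 at 4 h, a loss to 3.24% (log2 change -4.81, SE 0.66, adjusted p = 8.20e-07). Socs3, the inhibitor of LIF receptor and STAT3 signalling, went from 85.6 and 213 to 1.46 and 8.50 in control. In KO it fell from 104 and 93.4 to 8.97 and 20.3 (adjusted p = 5.82e-03, 0.073 after TMM scaling). Axin2, a Wnt target and component of the beta-catenin destruction complex, fell in KO from 52.2 and 77.6 to 3.92 and 5.81 (log2 change -3.48, SE 0.72, adjusted p = 6.42e-04). A non-coding gene, Gm11670, faces Axin2.

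The list of secreted ligands and cell surface receptors gave 6 members of 17 eligible genes, none with a facing exon. All 6 were called lower in KO, 3 after TMM scaling. They are Epha2, Fgf4, Cyr61, Fzd10, Nodal and Lefty1. Erbb2, a receptor kinase not on this list and faced by Mien1, is also a member and kept 76.6% in KO. Fgf4, the ligand that drives ERK signalling in ESCs, held 148 and 229 in control 0 h and 16.7 and 10.8 at 4 h. It fell in KO from 299.8 and 309 to 25.8 and 30.0 (log2 change -3.40, SE 0.46, adjusted p = 5.17e-07). At 8 h Fgf4 was at 38.2 and 50.4 in KO and at 15.7 and 15.4 in control, groups that do not overlap, with an adjusted p of 0.0543. Epha2, an ephrin receptor kinase, fell in KO from 345 and 299.7 to 68.9 and 41.7 (log2 change -2.56, SE 0.46, adjusted p = 1.11e-04). Cyr61, a matricellular protein, went in KO from 281 and 236 to 12.9 and 7.75, with a log2 change of -4.55 (SE 0.76, adjusted p = 3.86e-05). In control it went from 84.3 and 113 to 0 and 12.4. Fzd10, a Wnt receptor, fell in KO from 103 and 164 to 24.1 and 37.8 (adjusted p = 7.86e-03, 0.104 after TMM scaling).

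Of the p53 and stress list 3 of 9 eligible genes were members, and all 3 were called lower in KO, 2 after TMM scaling. Plk2, a polo-like kinase induced by p53, was at 81.7 and 54.9 in control 0 h and 6.55 and 6.95 at 4 h. Plk2 fell in KO from 204 and 201 at 0 h to 5.61 and 0.969 at 4 h, a log2 change of -5.82 (SE 0.73, adjusted p = 1.16e-07 by limma). Rhob, a small GTPase, fell in KO from 445 and 307 to 32.5 and 44.6 (log2 change -3.24, SE 0.48, adjusted p = 4.46e-06). Bbc3, which encodes the pro-apoptotic protein PUMA, fell in KO from 84.2 and 77.6 to 15.1 and 14.5 (adjusted p = 0.0293, 0.149 after TMM scaling). Cell cycle genes gave 2 members of 24 eligible: Cdt1, a replication licensing factor, fell in KO from 268 and 235 to 39.8 and 38.7 (adjusted p = 1.40e-04), and Kif20b, a mitotic kinesin, from 103 and 81.1 to 19.6 and 35.8 (adjusted p = 0.0456, 0.251 after TMM scaling). Of 22 eligible genes on the deadenylation and decay list 1 was a member, Nanos1, an RNA-binding translational repressor. Nanos1 fell in KO from 115 and 127 to 4.48 and 13.6 (adjusted p = 4.21e-05 by limma). None of the 23 eligible genes on the chromatin and transcription cofactor list was a member. The lists do not hold every gene of a class. Members on none of the lists include Tbx6, Nfe2l2, Kat8, Tada2b and Exosc6. These lists were drawn up with results of these data known, so their shares of members, against 5.84% of all eligible genes, are a description.

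**Figure D5:**
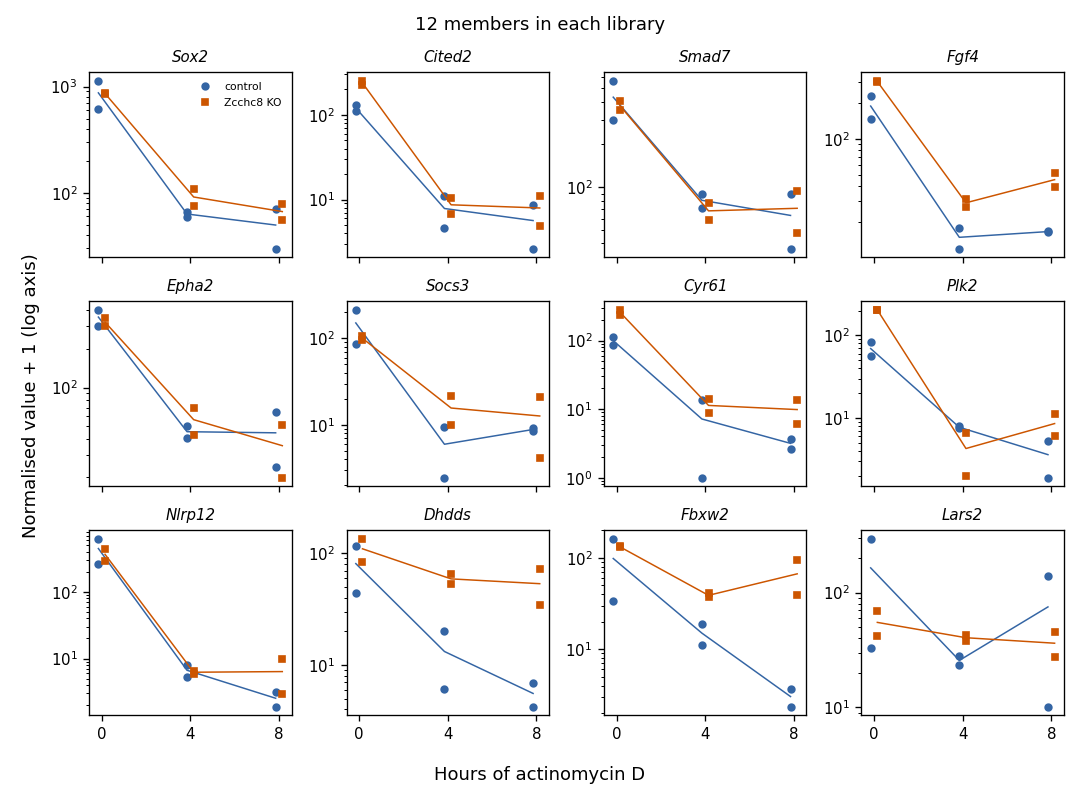
Normalised value + 1 (log axis, scaled for each gene) of 12 members against hours of actinomycin D; circles are control and squares Zcchc8 KO libraries, and lines join the means of 2 libraries. Sox2, Smad7, Epha2 and Nlrp12 follow like courses in both genotypes. The KO points of Dhdds and Fbxw2 lie above the control points at 4 and 8 h. Low control values at 4 h chose the members, so the gap at 4 h is no test.

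The 12 members with the highest level at 0 h include several whose reads may belong to a facing gene. Gm15441, a non-coding RNA facing Txnip, was highest, at 1085 and 2962 in control 0 h and 223 and 193 at 4 h, and in KO at 2201 and 2782 and then 172 and 207. Txnip, a glucose-responsive gene with a well-known unstable mRNA, has 2 transcripts here and was listed at 0 in all libraries at 0 h. Rtl1, an imprinted retrotransposon-derived gene, faces the microRNA genes Mir127, Mir136 and Mir431 to Mir434. It fell in KO from 884 and 1224 to 48.2 and 84.3 (log2 change -4.01, SE 0.41, adjusted p = 1.01e-09), and held 961 and 1806 in control 0 h, of which 5.57% was left at 4 h. Dnajc1, a chaperone gene facing Mllt10, kept 19.3% in control and 19.2% in KO. Ints8, an Integrator subunit facing the cyclin gene Ccne2, kept 19.1% and 23.3%. Trim41, a ubiquitin ligase facing Rack1, kept 18.0% and 24.5%. Lrrc75a, which faces the non-coding Lrrc75aos2, kept 7.15% and 4.46%. 9030025P20Rik, which faces Gm3417, kept 18.6% and 24.4%.

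Sox2, Smad7 and Fam69b are among the highest members with no facing exon. Fam69b, a transmembrane protein of the secretory pathway, fell in KO from 339 and 418 to 25.8 and 38.7 (log2 change -3.53, SE 0.48, adjusted p = 7.74e-07).

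Members that KO cells kept most were mostly of low level. Among the 163 members with a KO 0 h mean of at least 50, the 8 with the highest KO share were Lars2, B230219D22Rik, Gemin4, Fads3, Dhdds, Gm17296, Gla and Cul9, with 73.1% to 45.2% left at 4 h, and none of them was called lower in KO at 4 h. Lars2, a mitochondrial leucyl-tRNA synthetase, was at 31.6 and 294 in control 0 h, 26.9 and 22.4 at 4 h, and 9.19 and 139 at 8 h, so its entry into the group rests on control 0 h replicate 2. Its KO values of 67.4 and 40.6 at 0 h and 42.0 and 36.8 at 4 h overlap. Dhdds, an enzyme of dolichol synthesis, held 43.5 and 116 in control 0 h and 5.09 and 19.3 at 4 h, against 135 and 82.9 and then 52.1 and 63.9 in KO, where the log2 change was -0.86 (SE 0.58, adjusted p = 0.332). Fads3, a fatty acid desaturase, was at 84.3 and 200.3 and then 11.6 and 34.0 in control, and at 177 and 134 and then 89.1 and 76.5 in KO. Gemin4, part of the SMN complex and faced by Dbil5 and Fam57a, kept 16.4% in control and 53.4% in KO, and Gla, the lysosomal alpha-galactosidase, kept 12.0% and 47.8%. Because the control share chose them, no test of the difference between genotypes at 4 h is given. Over the whole group, the 45 members not called lower in KO had a median KO 0 h mean of 52.9, against 96.4 over all members.

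Members that KO cells kept least had 0.238% to 3.24% left at 4 h in KO, and from 0.361% (Mir292b) to 11.4% (Nfkbia) in control. The 6 with the lowest KO share were Ypel4, Mir292b, Nlrp12, Plk2, Nfkbia and Cited2. Ypel4, a small protein of the yippee family, was at 85.9 and 149.9 in KO 0 h, 0.561 and 0 at 4 h, and 0 in both libraries at 8 h. Control cells held 54.0 and 109.8 at 0 h and 0 and 3.86 at 4 h. Nlrp12 went from 286 and 443 to 5.61 and 4.84 in KO, a log2 change of -5.84 (SE 0.65, adjusted p = 6.16e-09). Control went from 261 and 629.9 to 4.37 and 6.95, and the Nlrp12 signal shares the strand question of the microRNA cluster it faces. Nfkbia, the NF-kappaB inhibitor and a classic unstable mRNA, went from 53.9 and 70.5 to 2.80 and 0.969 in KO, a log2 change of -4.52 (SE 0.83, adjusted p = 1.39e-04). Control held 29.0 and 90.4 of it at 0 h and 4.37 and 9.27 at 4 h. Values near 1 unit stand for 1 or a few reads, so the shares at this end are not precise.

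Between 4 and 8 h no member passed the test in KO, and the direction of the typical member depended on the scale. By limma 0 of 190 members were called lower and 0 higher, against 0.0288% and 0% of all genes. At an unadjusted p under 0.05, 19 members were lower and 1 was higher, and edgeR and DESeq2 also called 0. After TMM scaling 6 were lower and 15 higher at that limit. The median log2 change was -0.30 over members and -0.45 over all genes on the deposited scale, and 0.13 and -0.00 after TMM scaling. Ppan, a ribosome biogenesis factor chosen after its values were seen, came closest, from 78.5 and 78.5 at 4 h to 21.7 and 20.2 at 8 h (log2 change -1.86, adjusted p = 0.0847).

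At 8 h KO cells held more than control cells of a subset of members. This is the comparison between genotypes in which neither group chose the members. The members were still chosen for low control values at 4 h, and genes low in control cells then may stay low at 8 h. The counts therefore do not separate a genotype difference in loss from the choice of members. The 236 genes chosen by the same limits in KO were not counted at 8 h. By limma 31 of 190 members (16.3%) were higher in KO and 0 lower, against 4.88% of all genes and 6.32% of those with a control 0 h mean of at least 50. Of all genes 0.0144% were lower, and 0.273% after TMM scaling. No member was lower by edgeR or DESeq2; at an unadjusted p under 0.05 by limma 0 were lower on the deposited scale and 8 after TMM scaling. The median log2 difference was 0.90 over members and 0.63 over all genes, and 122 members lay above the median of all genes. Both KO libraries were above both control libraries for 103 of 190 members, a share close to the 55.3% of all genes tested. After TMM scaling 12 members were higher, against 1.44% of all genes, with a median difference of 0.34 over members and 0.00 over all genes. Leaving out KO 8 h replicate 2 reduced the calls to 5, and leaving out control 8 h replicate 1 to 13. Leaving out KO 8 h replicate 1 raised them to 51. Of the 112 members with no facing exon 17 were called. The sum over all genes at 8 h was 360228 and 444781 in control and 608326 and 757779 in KO. Against that higher total, the marker sums of several cell types were also higher in KO at 8 h without overlap. Fibroblast markers summed to 8901 to 11100 in control and 12933 to 15921 in KO, primitive endoderm markers to 100.0 to 129 and 170.0 to 234, and neuroectoderm markers to 107 to 114 and 139 to 196. Trophectoderm markers summed to 21.6 to 35.2 in control and 52.9 to 68.0 in KO, and the ESC markers themselves to 927 to 1208 and 1271 to 1508. Their part in the 8 h difference was not tested. The lists are not separate from each other, since Pdgfra is on both the fibroblast and the primitive endoderm list. They also hold members: Sox2 and Fgf4 are ESC markers here, and Olig2 is a neuroectoderm marker.

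Most of the 31 members also had higher values in KO before treatment, as most genes in the table did. Their KO 0 h mean was above that of control for 27, against 73.5% of all genes tested and 90 of the 190 members, which were chosen on control 0 h values. For 15 both KO libraries were above both control libraries, against 37.3% of all genes tested and 35 of the 190 members. The share left at 8 h had a median of 5.81% in control and 27.5% in KO over these 31; they were picked for high KO values at 8 h, so this is a description. Over all members the medians were 6.86% in control and 14.6% in KO, and over eligible genes 35.1% and 49.6%. The control shares are taken of the 0 h values that chose the members. Fbxw2, an F-box subunit of a ubiquitin ligase, had the largest difference: 2.70 and 1.36 in control 8 h against 38.2 and 93.2 in KO 8 h (log2 difference 4.36, SE 0.59, adjusted p = 2.37e-06, 3.54e-04 after TMM scaling). At 0 h it held 32.9 and 162 in control and 133 and 129 in KO, which overlap. Dhdds was at 3.24 and 5.87 in control 8 h and 33.1 and 71.8 in KO (log2 difference 3.21, SE 0.58, adjusted p = 2.80e-04). For both genes the KO libraries at 8 h lie far above the control libraries, and the 0 h libraries overlap. That overlap rests on control 0 h values that lie far apart, 43.5 and 116 for Dhdds, and that chose the members. Both genes were named for their small p at 8 h. Whether their 8 h gap reflects a different rate of loss or a different starting level was not tested.

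In the other 4 of the 6 members with the smallest p, both KO libraries stood above both control libraries already at 0 h. 9030025P20Rik held 141 and 284 in control 0 h and 766 and 929 in KO 0 h, and 21.6 and 24.8 against 157 and 346 at 8 h (log2 difference 3.28, SE 0.41, adjusted p = 6.63e-07). Spats1, a spermatogenesis gene that faces B230354K17Rik, was at 98.8 and 268 against 431 and 575 at 0 h, and at 3.78 and 4.52 against 38.2 and 76.8 at 8 h (log2 difference 3.43, SE 0.48, adjusted p = 5.31e-06). Mog, which encodes a myelin glycoprotein, was at 111 and 268 against 386 and 409 at 0 h and at 4.32 and 10.4 against 40.2 and 83.1 at 8 h (log2 difference 2.92, SE 0.50, adjusted p = 1.56e-04). Slc35b2, a Golgi sulfate-donor transporter, was at 133 and 165 against 241 and 235 at 0 h and at 5.40 and 8.13 against 28.0 and 80.6 at 8 h (log2 difference 2.67, SE 0.51, adjusted p = 6.34e-04).

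9030025P20Rik, Spats1, Mog and Slc35b2 all lie on chromosome 17. Of the 13 members on that chromosome 8 were called higher in KO at 8 h: 9030025P20Rik, AI413582, Mog, Ppp1r10, Slc35b2, Spats1, Trp53cor1 and Wfikkn1. Over all genes tested on chromosome 17, 28 of 365 (7.67%) were called. The median difference between genotypes over all genes of chromosome 17 was 0.48 at 0 h and 0.62 at 8 h, close to the medians of 0.44 and 0.63 over all chromosomes. This grouping was noticed after the values were seen, and its cause was not tested.

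Members had fewer exons and shorter gene spans than eligible genes. The median member had 7 exons and a gene span of 13.8 kb, against 10 exons and 22.0 kb for eligible genes, while transcript length was alike at 3077 and 3089 bases. Single-exon genes made up 15 of 188 members (7.98%) and 2.60% of eligible genes. The median 3′ UTR was 992 bases long in members and 1058 bases in eligible genes. GC content of the transcript had a median of 52.7% and 51.2%. These are descriptions with no test.

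The limits of the group are not sharp. Just inside the share limit lay Olig2 at 19.8%, Zcchc14 at 19.7% and B230219D22Rik at 19.6%. Just outside it lay BC037034, Mcl1 and, at 20.1%, Phf3. Mcl1, an anti-apoptotic gene with a short-lived mRNA, averaged 585 at control 0 h and 117 at 4 h, and kept 22.0% in KO. At the level limit Cul9, Mief2 and Gm14137 had control 0 h means of 50.3, 50.3 and 50.9. Of the 190 members, 69 were under 0.2 in all 4 pairings of a control 4 h with a control 0 h library, 49 in 3 and 72 in 2.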

How the data were processed

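Total RNA-seq of control and Zcchc8 KO ESCs was analysed in 12 of the 59 samples of the series; the other 47 were not analysed here. The deposited values are a normalised signal per RefSeq transcript, that is, reads scaled by the authors with a single factor for each library. Within 0.001 reads, 100% of values were whole multiples of 1 read (0.452 to 3.23 units). Per the submitters' processing notes the tools were HTSeq 0.6.0, TopHat2 2.1.1 and DESeq2, with mm9 as build. Not stated there are the strand setting and whether the ERCC spike-in entered the factors. The table had 0 per-sample columns outside these samples.

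Of 33896 rows, 978 repeats were dropped and transcripts were summed by symbol. All 190 members passed the filter of a mean of at least 10 over 12 libraries. Main test: limma 3.58.1 (R 4.3.3) on log2(value + 1), trend and robust, 6 group means, two-sided, Benjamini-Hochberg over 6952 genes. A log2 change on that scale understates the change of low genes. Alternatives on recovered reads used edgeR 4.0.16 and DESeq2 1.42.0. The fitting code was tested on simulated data. Features come from GENCODE on GRCm38, matched by RefSeq accession. Since no label ties the replicates to separate cultures, the p-values reflect only how far these libraries spread, which may be technical.

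The members and lists were chosen with earlier results of these data known. Genes were named by rule: Zcchc8; the 12 members highest at 0 h; the 8 highest and 6 lowest KO shares where KO 0 h was at least 50; the 6 smallest p for KO 8 h against control 8 h and 5 for KO 8 h against KO 4 h, per direction, among those called; genes next to the limits; and up to 4 members of each list. Some genes that meet this rule are not reported here. Libraries of the same number did not deviate together: over 15 pairs of groups the correlation of replicate 1 deviations ran from -0.07 to 0.12, and 2 were over 0.1.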

Additional observations from a re-analysis of the deposited data

How the results depend on the processing

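The number of members called lower in KO at 4 h than at 0 h was 145 in the main analysis. It was 85 with TMM scaling and 67 of 72 members left with a filter of a mean of at least 50. Smaller member definitions gave smaller counts by construction: 51 of 58 with 4 h below 0.1 of 0 h, 80 of 85 with a control 0 h mean of at least 100, and 66 of 73 by the same limits on TMM-scaled values. Chosen after seeing the data were 62 of 69 under 0.2 in all 4 control pairings and 85 of 112 without a facing exon. With 1 library left out the count ran from 78 to 159. A lone library is then assumed to vary like the other groups. For KO 8 h above control 8 h the main count was 31. It was 12 with TMM scaling, 14 by edgeR with TMM and 11 with no filter on low values, and for the same smaller definitions 10, 17, 8, 10 and 17. With 1 library left out it ran from 5 to 51. The members 9030025P20Rik, Dhdds, Fbxw2, Mog and Spats1 were called in each setting in which all 190 members or those above the filter were fitted. For KO 8 h against KO 4 h, Ppan was the 1 member called lower with the replicate block, with the filter of 50 and when only the 8 libraries that did not choose the members were fitted; with 1 library left out the count was 0 to 1. The replicate block gave 154 calls at 4 h and 44 at 8 h, but the shared numbers do not pair the libraries. The cause of these shifts was not tested. No member changed direction among the named calls: over the alternatives, 735 values of called named genes at 4 h stayed past the threshold and 40 did not, and 207 and 22 at 8 h. Depth limits most members, whose 4 h values rest on medians of 14 to 27.5 reads.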

Other observations

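The difference between genotypes varied by chromosome over all genes tested. At 0 h the median log2 difference of KO and control was 0.74 on chromosome 6, 0.63 on chromosome 8 and 0.04 on chromosome 18, against 0.44 over all genes. At 8 h the medians were 0.87, 0.81 and 0.21, against 0.63. Genes called higher in KO at 8 h made up 11.3% of those on chromosome 6, 8.33% on chromosome 8 and 1.97% on chromosome 18. Few members lie there: 1 of 5 members on chromosome 6 (Slc25a26), 2 of 10 on chromosome 8 (Has3 and Smpd3) and 1 of 6 on chromosome 18 (Pcdhgb8) were called. Pcdhgb8 belongs to a gene cluster with shared 3′ exons, so its count is uncertain. The cause of the differences between chromosomes was not tested.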
